A study of Arabidopsis thaliana with 28 samples.

Results

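The AITR/DIG genes are a small family of Arabidopsis transcription regulators. The 6 members were chosen by locus identifier, AT3G27250, AT5G40790, AT5G40800, AT3G48510, AT5G63350 and AT5G50360, and all 6 were among the 18310 genes measured. The family is described from plants as ABA-induced repressors of transcription that carry no widely recognised DNA-binding domain. Abscisic acid (ABA), the hormone of drought, salt and seed dormancy, binds PYR/PYL receptors, which then hold off the clade A PP2C phosphatases and free SnRK2 kinases to activate bZIP factors on promoters with the ABA-responsive element. AITR and DIG genes are known as targets of that chain whose products act back on the ABA response, and for that reason they are called feedback regulators. Members are given by locus identifier, because the annotation used here pairs no symbol with these loci.

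The RNA came from whole Arabidopsis thaliana seedlings of the Col-0 accession, for which the labels name no transgene or mutation. They were raised on nylon mesh over liquid medium in the dark and were 3 days old when treatment began. The groups differ by treatment and time alone: seedlings received 10 µM ABA or the ethanol carrier alone as mock, and were collected after 1, 4, 8, 12, 24, 36 or 60 h. That gives 14 groups of 2 libraries, 28 libraries in all, made from polyadenylated RNA. Levels are RPKM, read numbers relative to gene length and library size, and an effect is the ABA mean less the mock mean of log2(RPKM + 1), given ± its standard error in a limma model over all libraries.

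Depth, as reads recovered from the RPKM values, was 16.27 to 26.6 M per library. A gene was called at a Benjamini-Hochberg adjusted p under 0.05 over all 18310 genes. Nothing in the labels states that the 2 libraries of a group came from separate cultures, so p-values and errors measure the spread between libraries, which may be technical. The seedling label was read against genes of different organs, chosen after the data were seen. SCR, of the root endodermis, stood at 17.7 to 30.3 RPKM, ATML1, of the epidermis, at 31.5 to 48.9, and PORA, the protochlorophyllide oxidoreductase of dark-grown seedlings, at 53.0 to 749. CAB1, a light-harvesting gene, ranged from 1520 to 10690.4 RPKM although the labels give darkness for every library. Only whole seedlings were sampled, so fewer cells of a type that expresses a gene and less of its RNA per cell cannot be told apart.

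The members lie at 5 places on chromosomes 3 and 5 of build TAIR10.1, whose nuclear coordinates are those of TAIR10. AT3G27250 occupies chr3:10061009-10062870 on the plus strand and has 2 coding transcripts with 1 or 2 exons. The other members have 1 transcript of 1 exon on the minus strand. AT3G48510 lies at chr3:17967354-17968590, AT5G50360 at chr5:20505089-20506354 and AT5G63350 at chr5:25379931-25381317. AT5G40790 at chr5:16330041-16331276 and AT5G40800 at chr5:16334581-16336017 are neighbours, 3304 bases apart with 0 annotated genes between them. No annotated gene overlaps any of the 6. The genes encode 272 to 303 residues. The coding sequences of the tandem neighbours were identical at 63.4% of aligned bases. Higher identities joined genes that lie apart: 79.2% for AT3G27250 and AT5G40800, and 78.1% for AT3G48510 and AT5G63350. The longest run of identical bases was 31, in AT3G27250 with AT5G40800 and in AT5G63350 with AT5G50360. How reads that match more than 1 member were counted is not given in the sources used here, so levels of these pairs are uncertain to that extent.

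The bases just before the annotated starts of 4 members are shown because the ABA-responsive element is the promoter site through which bZIP factors act, and the members range from several copies of its core to no copy. Each line holds the 250 bases before the start, 5′ to 3′ on the strand of the gene, from the RefSeq genome of build TAIR10.1. Capitals mark ACGTG, the core of the element, on either strand, where the reverse strand reads as CACGT and CACGTG is a match on both. AT5G50360 comes from chr5:20506355-20506604, AT3G48510 from chr3:17968591-17968840, AT3G27250 from chr3:10060759-10061008 and AT5G63350 from chr5:25381318-25381567.
AT5G50360: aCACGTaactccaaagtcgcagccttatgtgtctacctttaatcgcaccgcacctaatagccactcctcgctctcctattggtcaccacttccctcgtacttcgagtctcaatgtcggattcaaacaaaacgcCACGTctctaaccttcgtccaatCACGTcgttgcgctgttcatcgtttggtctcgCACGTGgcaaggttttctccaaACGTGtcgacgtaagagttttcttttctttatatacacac
AT3G48510: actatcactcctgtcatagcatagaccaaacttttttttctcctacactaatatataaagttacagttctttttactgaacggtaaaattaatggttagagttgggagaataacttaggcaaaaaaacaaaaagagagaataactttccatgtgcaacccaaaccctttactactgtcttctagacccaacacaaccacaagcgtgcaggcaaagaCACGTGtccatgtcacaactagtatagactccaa
AT3G27250: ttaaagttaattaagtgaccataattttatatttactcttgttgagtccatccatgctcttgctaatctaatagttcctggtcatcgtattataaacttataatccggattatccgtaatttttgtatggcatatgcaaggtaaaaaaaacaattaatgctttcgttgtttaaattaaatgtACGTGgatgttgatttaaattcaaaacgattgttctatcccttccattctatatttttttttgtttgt
AT5G63350: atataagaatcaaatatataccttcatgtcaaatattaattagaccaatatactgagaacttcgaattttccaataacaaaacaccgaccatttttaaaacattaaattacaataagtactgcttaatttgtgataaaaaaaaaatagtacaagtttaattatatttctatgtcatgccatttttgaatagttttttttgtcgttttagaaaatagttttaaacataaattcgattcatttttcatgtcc

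In the window from 250 bases before to 50 after the start, AT5G50360 held 6 matches to ACGTG, at positions -249 to -40 relative to the start, and the stretch overlaps a neighbouring gene, AT5G50361. AT3G48510 held 4, the strands of 2 CACGTG palindromes, of which 1 lies before the start and the other on it. AT3G27250 held 1, at position -68. AT5G40790, AT5G40800 and AT5G63350 held 0, which says only that these letters are not in this window. Of 27443 protein-coding promoters of the annotation, 26.7% held at least 1 match and 10.7% at least 2, against 3 of 6 and 2 of 6 members. With only the bases before the start, the same count of 3 members stood against 22.9%. The G-box CACGTG, which overlaps the core, was in the windows of AT3G48510 (2) and AT5G50360 (1) and in 7.68% of promoters. The coupling element CACCG on either strand was in those of AT5G63350 (2) and AT5G50360 (1), with a background of 14.7%. The DRE core CCGAC on either strand, the site of DREB factors, had 1 match each in AT5G40800, AT5G63350 and AT5G50360, with a background of 15.0%.

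**Figure D1:**
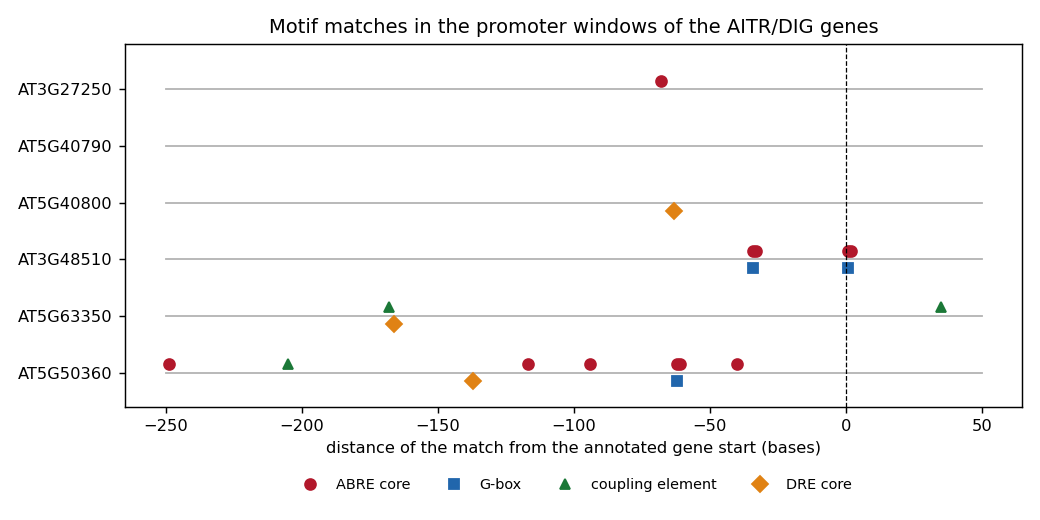
Matches to 4 motifs on either strand in the promoter window of each gene, by distance in bases from the annotated start (dashed line, 0), with grey lines for the window from 250 before to 50 after it. AT5G50360 holds 6 matches to the ABRE core and AT5G40790 holds no match to any of the motifs.

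ABA raised every member. In all 42 pairs of a member and a time both ABA libraries lay above both mock libraries. Over all genes that arrangement held at all 7 times for 5.08%. In 5 of 6 members, all but AT3G27250, every ABA library was above every mock library, as in 1.68% of genes. The name of the deposited table points to a filter on low counts, which all 6 members had passed. AT5G40790 and AT5G40800 were above 2 reads per M of reads in 4 and 3 ABA libraries and in 0 mock libraries, so the ABA libraries alone reach that level, and counts over the members are descriptions that support nothing further. At 4, 8, 12, 24, 36 and 60 h all 6 members were called higher with ABA by limma, where 8.98%, 7.92%, 8.37%, 6.64%, 8.24% and 7.84% of genes were. At 1 h 3 of 6 were called, AT3G48510, AT5G63350 and AT5G50360, against 1.7% of genes. The median effect of the members was 1.47 at 1 h, 2.25 at 4 h, 2.35 at 12 h and 2.06 at 60 h, beside a median of all genes of 0.00, -0.02, 0.01 and 0.00. The mean effect over the 7 times was called for all 6, as it was for 21% of genes. On the log2(RPKM + 1) scale it was largest in AT5G50360 (3.65 ± 0.11), followed by AT3G48510 (2.76 ± 0.09), AT5G63350 (2.59 ± 0.12), AT3G27250 (1.44 ± 0.10), AT5G40790 (1.42 ± 0.08) and AT5G40800 (1.33 ± 0.10). Adding 1 RPKM before the logarithm understates the ratios of the weakly expressed members, and the order turns on it. With voom weights on the recovered reads, the mean log2 difference was 5.52 in AT5G40790, 4.20 in AT5G50360, 3.90 in AT5G40800, 3.76 in AT3G48510, 2.7 in AT5G63350 and 2.2 in AT3G27250. The AT5G40790 value depends on the prior count, since its mock groups held at most 1 read.

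AT5G50360 had the largest ABA effect of the family at each time on the log2(RPKM + 1) scale. With voom weights AT5G40790 had it from 4 h on (5.88 against 4.83 at 4 h). At 1 h AT3G48510 had it with voom weights (3.53, against 3.52 in AT5G40790 and 3.22 in AT5G50360). With ABA its libraries stood at 16.7 and 21.6 RPKM at 1 h, 55.3 and 45.8 at 4 h, 36.8 and 43.2 at 8 h, 48.0 and 33.9 at 12 h, 38.9 and 32.1 at 24 h, 42.0 and 45.2 at 36 h and finally 43.0 and 43.4 at 60 h. Its mock libraries lay between 0.989 and 3.39 RPKM, with a median of 2.31, and no ABA library overlapped them. The gene was already 2.72 ± 0.29 higher at 1 h (adjusted p = 1.2e-05), a 9.38-fold ratio of mean RPKM and rank 19 of 18310 genes by increase. At 4 h it was 4.21 ± 0.29 higher (adjusted p = 5.9e-09), a 27.5-fold ratio that rested on 2541 ABA reads and 99 mock reads. The ratio then stayed between 11.5-fold at 24 h and 23.1-fold at 60 h, where the mock libraries stood at 2.76 and 0.989 RPKM and the ratio without mock replicate 1 was 43.7-fold. Mock seedlings showed no call for a change over time in this gene (limma F test, adjusted p = 0.63, unadjusted p = 0.54, adjusted p = 0.55 with voom weights).

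AT5G63350 was the most abundant member in every group. With ABA its libraries stood at 31.3 and 43.9 RPKM at 1 h, 79.0 and 74.8 at 4 h, 58.6 and 104 at 8 h, 90.3 and 81.6 at 12 h, 106 and 80.1 at 24 h, 108 and 92.6 at 36 h and finally 102 and 84.7 at 60 h. The 8 h replicates differed most. Its mock libraries stood at 3.64 and 8.60 RPKM at 1 h, 6.70 and 7.62 at 4 h, 6.65 and 8.83 at 8 h, 10.7 and 9.70 at 12 h, 21.4 and 18.9 at 24 h, 30.3 and 20.6 at 36 h and finally 28.3 and 14.9 at 60 h. The mock libraries at 24 to 60 h were all above those at 1 to 12 h, and the lowest ABA library, at 1 h, was just above the highest mock library, at 36 h. The mock seedlings changed over time in this gene (F = 11.9, adjusted p = 0.00012), a call that 55% of genes shared. The effect of ABA was 2.51 ± 0.33 at 1 h (adjusted p = 0.00011), 3.26 ± 0.33 at 4 h (adjusted p = 7.7e-07) and 2.12 ± 0.33 at 60 h (adjusted p = 0.00012). The ratio of mean RPKM was 10.7-fold at 4 h and 4.32-fold at 60 h, while the ABA level itself was 1.22 times as high at 60 h as at 4 h. The effect at 60 h minus that at 4 h was -1.14 ± 0.46, not called in the planned limma fit (adjusted p = 0.28) and called with a block for each pair of same-numbered libraries (adjusted p = 0.010).

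AT3G48510 had the third highest level with ABA. Its ABA libraries stood at 4.76 and 8.08 RPKM at 1 h, 13.6 and 15.1 at 4 h, 9.90 and 14.2 at 8 h, 15.3 and 12.9 at 12 h, 15.4 and 13.9 at 24 h, 15.7 and 15.6 at 36 h and finally 14.4 and 11.7 at 60 h. Mock libraries stood at 0.33 to 0.82 RPKM through 12 h, and at 2.03 and 1.23 at 24 h, 2.72 and 1.5 at 36 h and finally 1.66 and 0.88 at 60 h. The mock values of 24 to 60 h thus all lay above those of 1 to 12 h, as in AT5G63350, and the change of the mock seedlings over time was called (F = 5.19, adjusted p = 0.0075). ABA raised the gene by 2.23 ± 0.25 at 1 h (adjusted p = 1.8e-05), 3.30 ± 0.25 at 4 h (adjusted p = 1.7e-08) and 2.64 ± 0.25 at 60 h (adjusted p = 4.0e-07). The ratios of mean RPKM were 11.4-fold, 25.8-fold and 10.2-fold at these times, and 19.6-fold at 1 h without mock replicate 2.

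AT3G27250 reached its highest level at 60 h and was the member whose ABA and mock libraries overlapped across times. Its ABA libraries stood at 1.20 and 1.41 RPKM at 1 h, 2.86 and 2.01 at 4 h, 4.31 and 5.33 at 8 h, 5.96 and 3.65 at 12 h, 6.42 and 5.11 at 24 h, 6.51 and 5.28 at 36 h and finally 11.4 and 6.79 at 60 h. Mock libraries stood at 0.29 and 0.55 at 1 h, 0.73 and 0.85 at 4 h, 0.99 and 0.60 at 8 h, 0.88 and 0.53 at 12 h, 1.83 and 0.90 at 24 h, 1.74 and 0.90 at 36 h and finally 2.23 and 1.18 at 60 h. At each time both ABA libraries were above both mock libraries, but both 1 h ABA libraries and replicate 2 of 4 h lay below the highest mock library, replicate 1 of 60 h. The effect was 0.71 ± 0.27 at 1 h, not called in the planned fit (adjusted p = 0.37) and called with the pair block (adjusted p = 0.021). The authors' deposited table gives an FDR of 0.0342 for it. At 4 h the effect was 0.93 ± 0.27 (adjusted p = 0.028), a call that ended without ABA replicate 1 (adjusted p = 0.25), mock replicate 1 (0.14) or mock replicate 2 (0.11) of that time. At 60 h it was 1.89 ± 0.27 (adjusted p = 5.4e-05), with 374 ABA reads and 71 mock reads, a 5.34-fold ratio of mean RPKM. The 60 h effect exceeded the 4 h effect by 0.96 ± 0.38, not called in the planned fit (adjusted p = 0.26) and called with the pair block (adjusted p = 0.018). The change of the mock seedlings over time was not called either (adjusted p = 0.076), and was with a block for replicate number (adjusted p = 0.013), a pseudocount of 0.1 (0.015), quantile normalization (0.010) and voom weights (0.017).

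The tandem neighbours were the least abundant members. AT5G40790 was listed at 0 in 11 of 14 mock libraries and held at most 1 read in any, against 4 to 59 reads per ABA library. Its ABA libraries stood at 0.22 and 0.30 RPKM at 1 h, 1.72 and 1.09 at 4 h, 1.47 and 1.55 at 8 h, 2.94 and 1.77 at 12 h, 2.35 and 1.54 at 24 h, 3.64 and 1.82 at 36 h and finally 3.81 and 2.32 at 60 h. Every ABA library was above every mock library, and from 12 h on replicate 1 was above replicate 2. Against a floor of 3 reads over the mock group, the ratio was 3.50 at 1 h (10 reads against 0), 19.8 at 4 h (56 against 0), 30.03 at 36 h and 32.7 at 60 h. These ratios take the ABA reads as exact. The lower limits of the 95% exact intervals were 2.35, 15.6, 23.9 and 26.1 at these times. At 12 h 91 ABA reads stood against 1 mock read, a ratio of 105 with a 95% exact interval of 18.5 to 4210, which covers counting error only. The effect was 0.33 ± 0.21 at 1 h, not called in the planned fit (adjusted p = 1.0), while voom weights on the recovered reads (adjusted p = 0.0063), a pseudocount of 0.1 RPKM (adjusted p = 0.012) and the authors' deposited table (FDR 0.0201) called it. It was 1.25 ± 0.21 at 4 h (adjusted p = 0.00034) and 2.0 ± 0.21 at 60 h (adjusted p = 2.0e-06).

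AT5G40800 stood at 0.56 and 0.44 RPKM with ABA at 1 h, 1.97 and 1.15 at 4 h, 1.09 and 2.32 at 8 h, 2.71 and 0.86 at 12 h, 2.1 and 2.09 at 24 h, 3.22 and 2.02 at 36 h and finally 4.48 and 2.58 at 60 h. Mock libraries lay at 0 to 0.28 RPKM, with 3 of 14 at 0, below every ABA library. The replicates at 8 and 12 h were further apart than the group means of neighbouring times. The effect was 0.55 ± 0.27 at 1 h, not called (adjusted p = 0.78; FDR 0.0186 in the authors' deposited table), 1.19 ± 0.27 at 4 h (adjusted p = 0.0054) and 1.93 ± 0.27 at 60 h (adjusted p = 5.3e-05). The call ended without ABA replicate 1 at 4 h (adjusted p = 0.10), without ABA replicate 2 at 8 h (0.075) and without ABA replicate 1 at 12 h (0.087). Reads numbered 56 with ABA against 4 with mock at 4 h, a ratio of 14.9 (95% exact interval 5.50 to 56.5), and 100 against 5 at 60 h, a ratio of 20.2 (8.39 to 63.7). The lengths that the RPKM of AT5G40790 and AT5G40800 imply, 912 and 819 bases, equal their coding lengths, whereas those of the other members, 1159 to 1187 bases, exceed theirs.

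**Figure D2:**
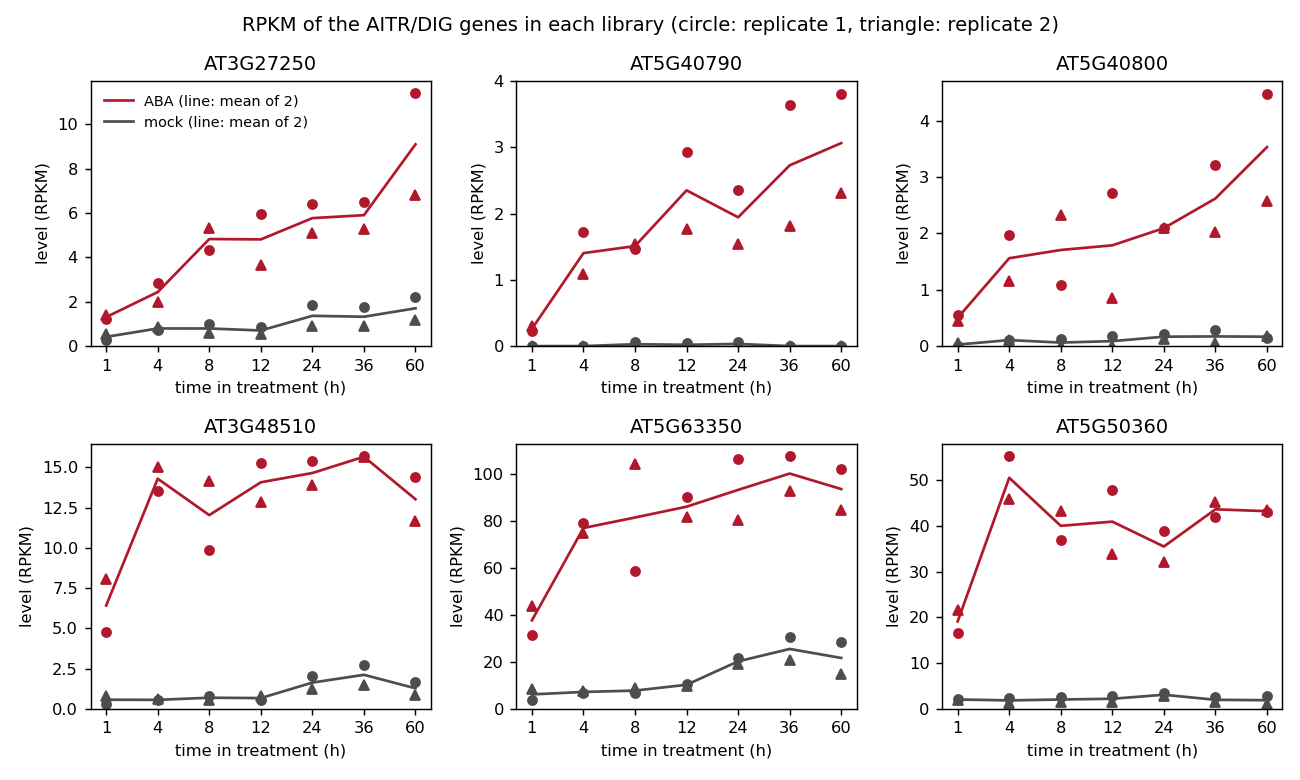
RPKM (vertical axis, from 0, with its own scale for each gene) by time in treatment in hours (evenly spaced) for the 6 genes, where circles are replicate 1, triangles replicate 2 and lines the means of 2 libraries, red for ABA and grey for mock. Both ABA points lie above both mock points at every time, and the mock line of AT5G63350 climbs from 6.12 RPKM at 1 h to 25.4 at 36 h.

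The course of the ABA level was asked within each treatment, with the 1 to 60 h groups in a limma F test. All 6 members changed over time with ABA, at adjusted p of 5.0e-05 (AT5G40790) to 0.015 (AT5G63350), a call that 60.1% of genes shared. With voom weights 3 of these calls ended, those of AT5G40800 (adjusted p = 0.25), AT3G48510 (0.095) and AT5G50360 (0.091). A pseudocount of 0.1 ended those of AT3G48510 (0.062) and AT5G50360 (0.080). Without ABA replicate 1 at 1 h 3 calls ended, those of AT3G48510 (0.17), AT5G63350 (0.25) and AT5G50360 (0.17). Between neighbouring times the rise from 1 to 4 h with ABA was called for AT5G50360 (1.36 ± 0.29, adjusted p = 0.0041), AT3G48510 (1.08 ± 0.25, 0.0066), AT5G40790 (0.92 ± 0.21, 0.0072) and AT5G63350 (1.03 ± 0.33, 0.041), as it was for 8.09% of genes. A fit with a block for replicate number also called AT5G40800 (adjusted p = 0.034). The call of AT5G63350 ended without ABA replicate 1 or 2 at 1 h (adjusted p = 0.22 and 0.067), ABA replicate 1 or 2 at 4 h (0.15 and 0.14) or either mock replicate at 4 h (0.050 each, just over the threshold). It also ended with a pseudocount of 0.1 (0.054), quantile normalization (0.061) and voom weights (0.052). That of AT5G40790 ended without ABA replicate 1 at 4 h (0.090). For AT3G48510 it ended without ABA replicate 1 at 1 h (0.088) or ABA replicate 2 at 4 h (0.060), and with voom weights (0.054). Of the 66 other member contrasts of neighbouring times 0 were called by limma (against 0.789% of such contrasts over all genes), with voom weights or with the block, and 3 had an unadjusted p under 0.05. After 4 h the group means of AT5G50360 and AT3G48510 at 60 h were 0.855 and 0.911 times those at 4 h. Those of AT5G40790, AT5G40800 and AT3G27250 were 2.18, 2.26 and 3.73 times as high.

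Whether the ABA effect itself differed between the 7 times was tested by a limma F test of the interaction. It was called for AT5G40790 (F = 6.74, adjusted p = 0.025), as for 4.17% of genes, and not for the other members (adjusted p from 0.27 for AT5G50360 to 0.52 for AT5G40800). With the pair block AT5G63350 (adjusted p = 0.0073), AT5G40790 (0.015), AT3G27250 (0.017) and AT5G50360 (0.050, just under the threshold) were called. The block also called far more genes for this test, 2609 against 764 in the planned fit. Voom weights called 0 members, with adjusted p = 0.60 for AT5G40790. From 1 to 4 h the effect grew by 1.49 ± 0.41 in AT5G50360 and by 1.07 ± 0.35 in AT3G48510, which limma did not call (adjusted p = 0.072 and 0.16) and the fit with the pair block did (0.016 and 0.028). For the difference between 4 and 1 h, and likewise between 60 and 4 h, limma called 0 of 6 members, where 3 had an unadjusted p under 0.05, voom weights called 0 and the block called 2. Of all genes, the planned fit called 1.95% with a larger effect at 4 h than at 1 h. It called 0.732% with a larger effect at 60 h than at 4 h and 1.73% with a smaller one. In either direction, the block called 1302 genes for 4 h minus 1 h and 2106 for 60 h minus 4 h.

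**Figure D3:**
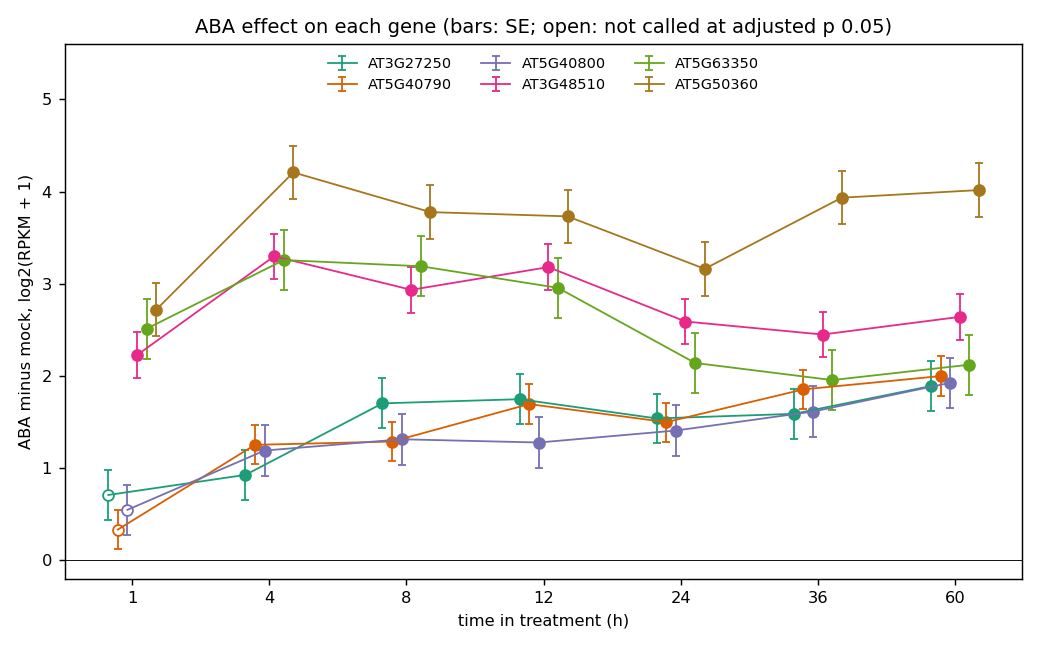
ABA effect on log2(RPKM + 1), ABA minus mock, for each gene by time in treatment in hours (evenly spaced, points shifted sideways for clarity), with standard errors of the limma fit as bars and open points where the adjusted p was 0.05 or more. On this scale AT5G50360 lies highest at every time, from 2.72 at 1 h to 4.21 at 4 h and 4.02 at 60 h, and the 3 open points are those of AT3G27250, AT5G40790 and AT5G40800 at 1 h.

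The summed RPKM of the 6 members was 65.2 ± 14.9 (SD, n = 2) with ABA and 9.17 ± 3.81 with mock at 1 h, a ratio of 7.11. The ratio was 14.1 at 4 h, where the sums were 147 ± 10.2 and 10.4 ± 0.015, and 6.21 at 60 h, with 165 ± 19.6 and 26.6 ± 12.0. AT5G63350 made up 57.1% ± 3.35 of the sum over the 14 ABA libraries and 73.6% ± 8.52 over the 14 mock libraries. AT5G50360 made up 27.9% ± 4.03 with ABA and 14.4% ± 8.06 with mock. In mock seedlings the share of AT5G50360 was 25.0% at 1 h, the mean of 34.2% and 15.7% in libraries far apart, and 6.66% at 60 h (7.87% and 5.44%), beside 64.4% and 81.4% for AT5G63350. With ABA it was 29.5% and 26.3%. AT3G48510 held 9.16% ± 0.93 with ABA and 5.68% ± 1.16 with mock, and AT3G27250 held 3.28% ± 1.27 and 5.67% ± 1.61. The tandem neighbours stayed at or below 2.13% (AT5G40790) and 2.499% (AT5G40800) of the sum in every library. Shares were compared as descriptions, with no test.

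**Figure D4:**
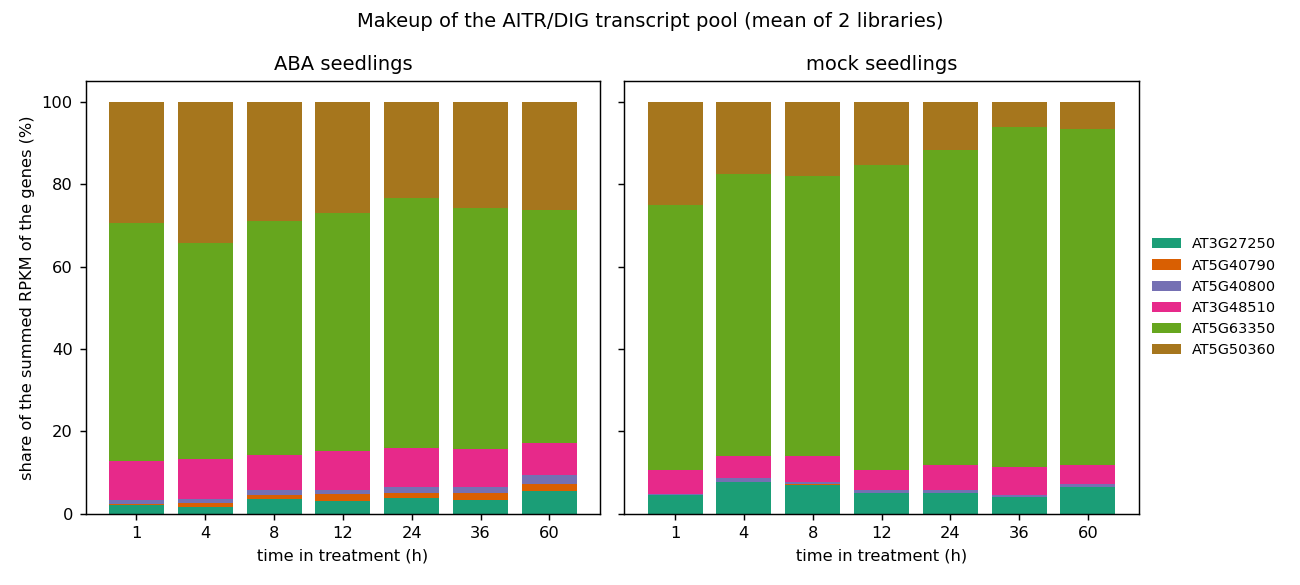
Share of each gene in the summed RPKM of the 6 genes (vertical axis, percent, mean of 2 libraries) by time in treatment in hours, for ABA on the left and mock on the right. AT5G63350 fills most of every bar, and the share of AT5G50360 in mock seedlings is 25.0% at 1 h (34.2% and 15.7% in its libraries) and 6.66% at 60 h.

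With ABA at 4 h the levels per length were 76.9 RPKM in AT5G63350, 50.5 in AT5G50360, 14.3 in AT3G48510, 2.43 in AT3G27250, 1.56 in AT5G40800 and 1.40 in AT5G40790. The libraries of AT5G40800 and AT5G40790 overlapped, and each other neighbour in that order was separate. Across the conditions the members moved alike, with Pearson's r of log2(RPKM + 1) over the 14 group means from 0.86 (AT3G27250 with AT5G50360) to 0.99 (AT5G40790 with AT5G40800). The points share libraries and the difference between ABA and mock, so r is a description and carries no p. By the same measure over genes of mean RPKM at least 1, the genes most like each member were named. For AT3G27250 they were RAB18, a dehydrin (r = 0.983), AT5G45310 (0.982) and AT1G68570 (0.981). For AT5G40790 they were AT5G04010 (0.995), VAMP712, a vesicle SNARE (0.995), and PIMT2, a protein-repair methyltransferase (0.995). VAMP712 (0.995) also led for AT5G40800, before AT2G37440 (0.992) and AT5G43770 (0.991). AT3G48510 was most like AT2G41870 (0.996), RD26, a stress NAC factor (0.992), and AT5G42290 (0.992). AT5G63350 was most like ABI2, a clade A PP2C (0.995), AT3G01590 (0.990) and AT1G07080 (0.990). AT5G50360 was most like E12A11 (0.995), LEA4-5, a late-embryogenesis protein (0.995), and AT5G42290 (0.993).

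The members were set beside the core of ABA signalling, in lists compiled from background knowledge. Over all genes, 1.7% were called higher at 1 h, 8.98% at 4 h and 6.64% to 8.37% at the later times. Of 9 clade A PP2C genes, whose products inhibit SnRK2 kinases, all 9 were called higher at each of the 7 times. Their median effect was 3.53 at 4 h and 2.23 at 60 h, against 2.25 and 2.06 for the AITR/DIG genes. These medians are on the log2(RPKM + 1) scale, which understates the ratios of weakly expressed genes, so their order may turn on it. With voom weights the 4 h values of AT3G27250, AT5G40800 and AT5G40790 were 1.60, 3.55 and 5.88, beside 0.93, 1.19 and 1.25 here. The phosphatases were compared on this scale alone. HAI3 (5.32), HAI1 (4.82) and HAI2 (4.17) had the largest effects at 4 h, and AT5G50360, at 4.21, lies between HAI1 and HAI2. Of 8 measured PYR/PYL receptors of 14 listed, 3 were called lower at 4 h, as were 3.74% of genes: PYL4 (-2.53), PYL6 (-2.31) and PYL5 (-1.62). With the pair block 6 were called lower and 2 higher at that time, when the block called 4996 genes in either direction. Of 10 SnRK2 kinases 4 were called higher at 4 h, SNRK2.7 (2.24), SNRK2.9 (1.21), SNRK2.10 (0.80) and SNRK2.6 (0.58). The pair block also called SNRK2.1 (0.28, adjusted p = 0.023 with the block and 0.12 without).

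Of 7 bZIP factors of the ABF and ABI5 group, which bind the ABA-responsive element, 5 were called higher at 4 h, led by ABF2 (2.13), ABI5 (2.12) and ABF3 (1.76), while AREB3 (0.03) and EEL (-0.09) were not called. All 4 AFP genes, whose products bind ABI5, were called higher at 1 and 4 h, led by AFP1 (2.59 and 3.54). At 60 h 2 of 4 were called higher, as were 7.84% of genes. With the pair block 4 were, when it called 5233 genes in either direction. The list of 7 ABA effectors had 3 called higher at 1 h, and 5 with the pair block, which called 901 genes in either direction. From 4 h on 7 were called higher, with RD29B (5.89), LTI30 (5.50) and KIN1 (4.99) the largest at 4 h. At 1 h the 3 AITR/DIG genes called had effects of 2.23 to 2.72, beside 2.1 for ABI1 and 3.39 for HAI1. Of the effectors at 1 h, LTI30 (2.23), RD29B (1.87) and RD29A (1.76) were called. EM1 (2.07), EM6 (1.90), RAB18 (0.53) and KIN1 (0.29) were not called in the planned fit. The median effect at 1 h was 1.87 for the effectors and 1.47 for the AITR/DIG genes. Differences between these lists and the AITR/DIG genes were not tested.

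**Figure D5:**
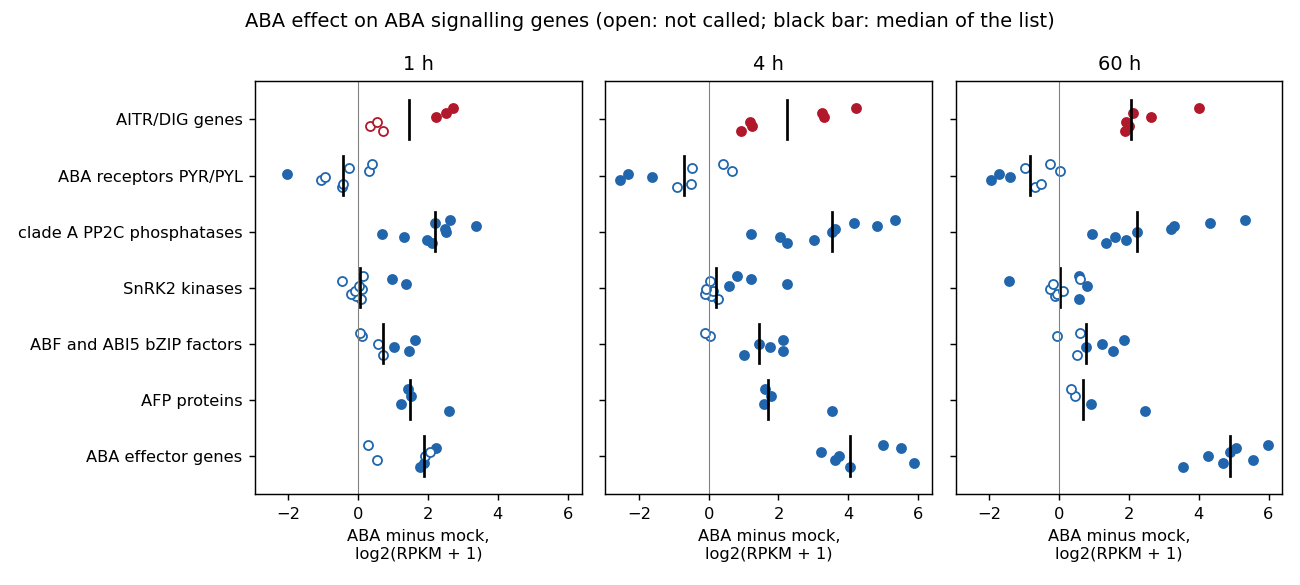
ABA effect on log2(RPKM + 1), ABA minus mock (horizontal axis), of each gene of the AITR/DIG family (red) and of 6 lists of ABA signalling genes (blue) at 1, 4 and 60 h, with open points for genes not called and black bars for list medians. The AITR/DIG median is 1.47 at 1 h, 2.25 at 4 h and 2.06 at 60 h. A receptor holds the lowest value at each time, PYL6 at 1 h (-2.04) and PYL4 at 4 h (-2.53) and 60 h (-1.95).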

How the data were processed

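The tools HTSeq 0.5.4 and edgeR 3.6.2 and build TAIR10 are named, per the submitters' processing notes, while the aligner and the use of strand are not given in the sources used here. The authors deposited RPKM for 18310 genes in 28 libraries, and, per the file headers, a log2 fold change and an FDR (adjusted p-value) of ABA against mock at each time. The table's name points to a filter on low counts whose exact limit was not recovered. Every RPKM value was a whole number of reads times a step, within 0.01 reads (100.0% of 512680 values), which gave the read numbers and gene lengths used here. Log2(RPKM + 1) was fitted with limma 3.58.1 (R 4.3.3) as 14 group means with an intensity trend, two-sided, adjusted over all genes. The script was tested on simulated data. Libraries of equal replicate number at a time deviated together (Pearson's r across genes 0.429 to 0.736 at the 7 times), so the numbers were taken to pair the libraries. The planned fit has no block. Errors, adjusted p-values and shares of genes come from it unless another fit is named. A block fit stands beside the members' results whose call it changes. Replicates differed by far more than sampling noise. Alternatives were a pseudocount of 0.1, a mean RPKM of at least 1, quantile and median-ratio scaling, voom weights on the recovered reads, single libraries left out and the 4 libraries of a time alone. Exact binomial intervals (95%) and the floor of 3 reads over a group cover counting error only. Named were the members, lists of ABA genes with their largest values, and per member the 3 genes of mean RPKM at least 1 with the highest r over the 14 group means. The members and lists were chosen with earlier results of these data known.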

Additional observations from a re-analysis of the deposited data

Results flagged for a closer look

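The ABA effect on AT5G40790 differed between the 7 times by the interaction test itself (limma F = 6.74, adjusted p = 0.025). The effect was 0.33 ± 0.21 at 1 h, between 1.25 and 1.85 at 4 to 36 h and 2.0 ± 0.21 at 60 h, with both ABA libraries above both mock libraries at each time. The call ended without any single library of 1 h: ABA replicate 1 (F = 4.73, adjusted p = 0.11), ABA replicate 2 (5.19, 0.085), mock replicate 1 (4.91, 0.10) or mock replicate 2 (4.91, 0.12). It was kept in the other 24 of 28 fits that left a library out. With voom weights on the recovered reads it was not called (F = 2.19, adjusted p = 0.60). The mock libraries of this gene held at most 1 read each.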

How the results depend on the processing

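Of 42 effects of a member at a time, all kept their direction under every alternative run. Of 39 called, 35 stayed called in all 28 fits that left out 1 library. The exceptions were AT3G27250 at 4 h and AT5G40800 at 4, 8 and 12 h. Among 287 other settings of these effects, 283 kept their side of the threshold, 3 crossed it upwards at 1 h and 1 crossed it downwards (AT5G40800 at 12 h from the 4 libraries of that time, adjusted p = 0.093). Scaling moved the median of all genes by at most 0.07. The difference of effects between 4 and 1 h in AT3G27250, 0.22, was -0.0048 with a pseudocount of 0.1 and -0.055 with voom weights. That of AT5G50360 between 60 and 4 h, -0.19, ran from -0.65 to 0.27 as libraries were left out. Neither was called in any of these fits, and the cause was not tested. The pair block changed no member's call at a single time other than AT3G27250 at 1 h.

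With the pair block limma called 901, 4996, 4578, 5208, 4473, 5443 and 5233 genes for ABA minus mock at 1, 4, 8, 12, 24, 36 and 60 h. The pair block called 2609 for an effect that differed between times (764 without the block). It called 1302 for the effect at 4 h minus 1 h and 2106 for 60 h minus 4 h. Its residual degrees of freedom were 7 in place of 14, and its median standard error at 4 h was 0.117 in place of 0.186. Members called for an effect that differed between times numbered 4 with the block, 0 with voom weights and 0 of those left by a mean RPKM of at least 1, which removed AT5G40790. The block called 2 members for each of the other differences between times. Fits restricted to the 4 libraries of 1 time called 842 genes at 24 h, 1241 at 36 h and 921 at 60 h. Voom weights called 3 members for a change over time with ABA and 2 for a step between neighbouring times. Of the 18 pairings of a member with a most alike gene (16 distinct genes), 9 also stood among the nearest over 28 libraries.

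Leaving out a library gave 211 to 400 genes at 1 h, 1420 to 2414 at 4 h, 1391 to 2170 at 8 h, 1507 to 2394 at 12 h, 1228 to 2003 at 24 h and 1680 to 2604 at 36 h. It gave 504 to 753 genes for an effect that differed between times (0 to 1 members), 237 to 458 for 4 h minus 1 h (0 to 1 members) and 240 to 478 for 60 h minus 4 h. For a change over time with ABA it gave 3 to 6 members, and for neighbouring times 2 to 5 member contrasts. The lowest depth limits AT5G40790 and AT5G40800 most, whose mock groups held 0 to 5 reads.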
